A study of Mus musculus with 6 samples.

Results

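Liver making the SV40 large T antigen (LT) was compared with liver making the shorter 17kT antigen, across all genes of 2 Affymetrix array designs. The comparison took the LT and 17kT arrays of the designs 430A and 430B, 4 of the 6 arrays of the series, with 1 array per genotype and design, and ratios were taken only within a design. Of 18194 genes named by a probe set, 12542 were measured in this comparison, and 5652 were at the floor on both arrays and have no ratio. The other pair of arrays, from wild-type (WT) liver, is shown beside each gene as a reference level.

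Large T is the main oncoprotein of the polyomavirus SV40. One short motif of it binds the retinoblastoma family of pocket proteins (Rb1, Rbl1, Rbl2), which otherwise hold back the E2F transcription factors and entry into the cell cycle, and its carboxy-terminal part binds p53. The p53 protein is a transcription factor that is stabilised by stress and oncogene activity and switches on genes for cell cycle arrest, cell death, DNA repair and metabolism. 17kT is a product of an alternatively spliced message of the same gene that keeps the pocket protein motif but not the p53-binding part. The comparison therefore sets liver with an antigen that binds both against liver with an antigen that binds the pocket proteins alone.

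All mice were male, of a hybrid B6SJL background and 32 to 37 days old, and all of them, WT included, drank water with 25 µg/ml doxycycline and 2.5% sucrose for 4 days. LT and 17kT mice carried ApoErtTA:TRE2-TAg transgenes, in which doxycycline lets the rtTA transactivator switch on the TRE promoter ahead of the antigen. Both kinds of liver also made the small t antigen (st), which binds the phosphatase PP2A, so that st and the ApoErtTA transgene were shared by both sides of the comparison and absent from WT. The genotype label of the 17kT arrays ends in TRE2-TA rather than TRE2-TAg. No probe set for the viral transcripts was used, and the genotype labels therefore have no check from the transgenes. The series describes single measurements. The sources used here do not say whether RNA of several animals was pooled.

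With 1 array per side and design there was no replication, so differences are given by size and without p-values. Values are signals, that is probe set brightness in arbitrary units on a linear scale. Signals under the floor, the median of all scaled signals of a design (90.4 on 430A and 140.5 on 430B), were set to the floor before ratios were taken. A gene was called higher or lower in LT at 2-fold, which is 1 on the log2 scale, and "at least" marks a fold against an array at the floor. Log2 ratios of other probe sets mostly lack such a mark, though some of them were also taken against an array at the floor. As a measure of technical error per ratio, differences between 2 log2 ratios of LT over 17kT were taken, and their SD was divided by the square root of 2. It came to 0.26 between the designs over 100 probe sets that both carry, and to 0.45 between probe sets of the same gene over 3382 pairs. A constant offset does not enter such an SD. The ratios of the 100 probe sets on the 2 designs had a Pearson r of 0.48. Those 100 probe sets also showed an offset: their median log2 ratio was -0.03 on 430A and 0.42 on 430B. The bright end of 430B was shifted as well, since among its genes with a mean signal at least 8-fold above the floor 82 were higher in LT and 4 lower, against 44 and 36 on 430A. Called genes measured on 430B are marked as such below. Fluidics station 2 was used for the LT arrays and station 1 for the 17kT and WT arrays, and effects of station and of LT genotype cannot be told apart. RNA integrity, read as the 3' over 5' signal of the Gapdh control, was 3.08 and 3.16 for LT and 3.53 and 2.85 for 17kT on 430A and 430B, against 5.81 and 6.04 for WT. For the Actb control it came to 2.52 and 2.50 in LT, 2.13 and 1.72 in 17kT, and 2.57 and 2.29 in WT. By Gapdh WT stood apart, and by Actb 17kT had the lowest ratio on both designs. The part of RNA quality in the differences below was not tested.

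**Figure D1:**
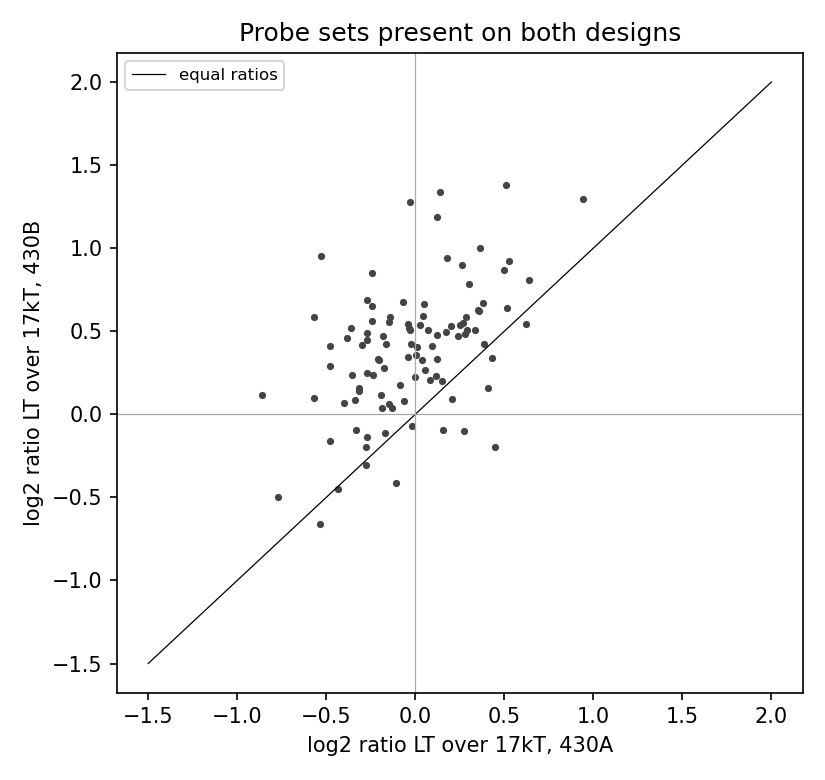
Log2 ratio of LT over 17kT on 430A (horizontal axis) and on 430B (vertical axis) for the 100 probe sets that both designs carry, with the line of equal ratios. Most points lie above the line, with median ratios of -0.03 on 430A and 0.42 on 430B.

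LT and 17kT liver differed by 2-fold in 1091 of 12542 measured genes. Of these, 561 were higher in LT, which is 4.47% of measured genes, and 530 were lower, which is 4.23%. On 430A 179 of 6917 genes were higher (2.59%) and 179 lower (2.59%), while on 430B 382 of 5625 were higher (6.79%) and 351 lower (6.24%), so calls took a larger share of the genes on 430B. Differences of 4-fold or more were seen in 57 genes higher and 29 lower, and of 8-fold or more in 7 and 3. In bulk tissue, fewer cells of a type and less RNA per cell cannot be told apart. The balance of higher and lower calls depended on scaling: 51.4% of calls were higher in LT here, against 73.3% with arrays scaled to the median of all probe sets and 24.8% with scaling to the probe sets that both designs carry, as the median log2 ratio of all measured genes moved from -0.03 to 0.14 and -0.13. It was -0.15 when the spiked hybridisation controls set the scale. Where another probe set of a called gene was measured, at least 1 had the same sign for 197 of 253 genes higher in LT (77.9%) and 137 of 165 lower (83.0%). The WT signal lay beyond the LT signal, with 17kT farthest from WT, in 163 of the genes higher in LT and 95 of the genes lower.

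**Figure D2:**
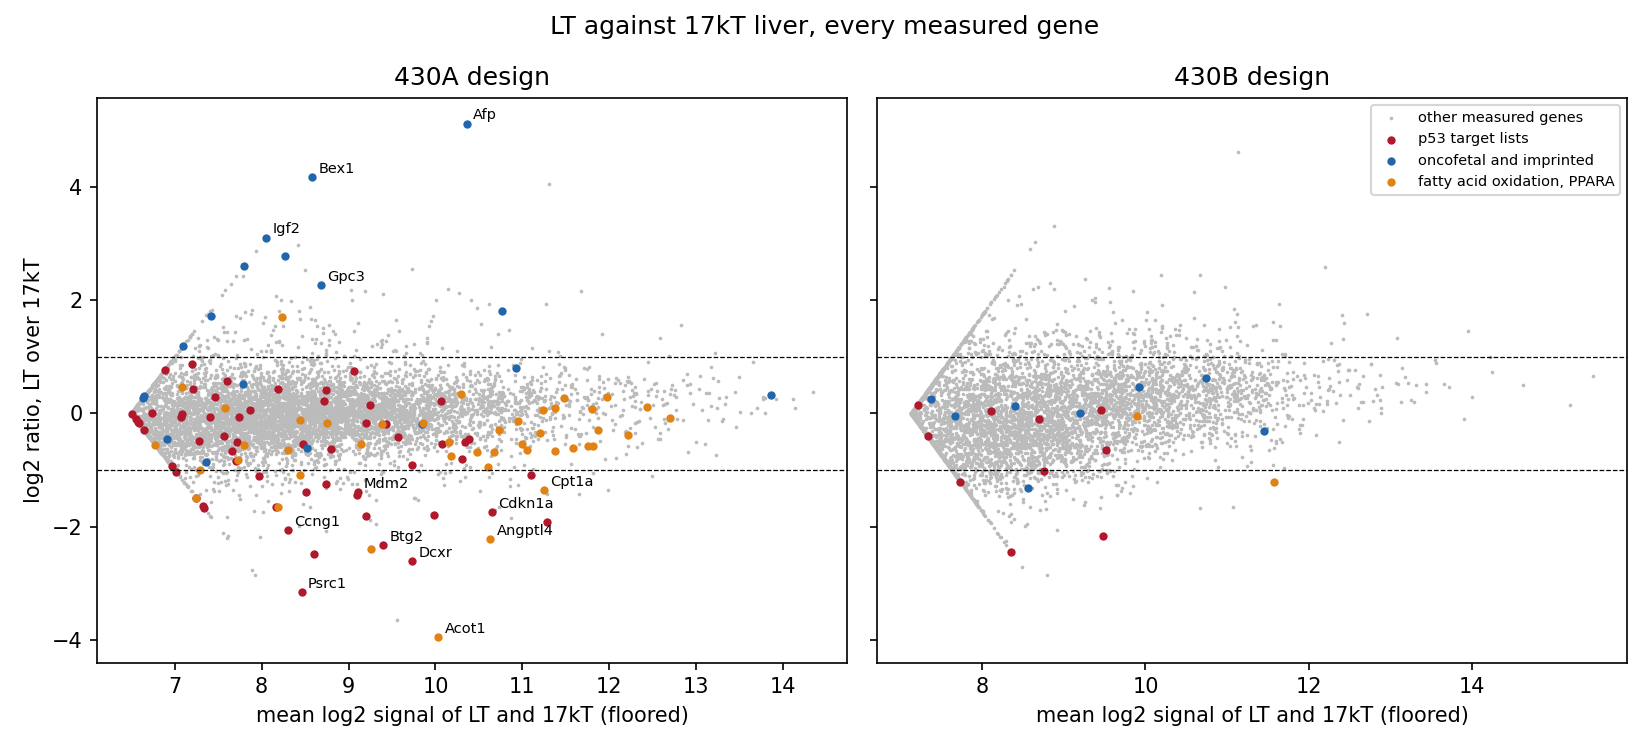
Log2 ratio of LT over 17kT (vertical axis) against the mean log2 signal of both arrays after flooring (horizontal axis) for every measured gene, 430A on the left and 430B on the right, with dashed lines at 2-fold. Genes of the p53 target lists lie mostly below 0, Afp, Bex1 and Igf2 at the top, and Acot1 at the bottom. Straight edges on the left are genes at the floor on 1 array.

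Of the gene groups examined, targets of p53 were most often lower in LT. Over 3 lists of p53 targets (cell cycle arrest and feedback, cell death, repair and metabolism) with 77 entries in all, 68 genes were measured, of which 24 were lower in LT (35.3%, against 4.23% of all measured genes), 0 were higher and 44 differed by less than 2-fold. The median log2 ratio was -0.51, against -0.03 over all measured genes, and 52 of the 68 ratios were below 0. By design, 20 of 58 members on 430A and 4 of 10 on 430B were lower, against 2.59% and 6.24% of all genes measured there. Set beside WT, 27 of the 68 genes (39.7%) were at least 2-fold above WT in 17kT liver, against 10.3% of all genes measured here, and 9 (13.2%) in LT liver, against 11.3%. Both comparisons share the WT arrays. For 18 of the 24 genes lower in LT, the WT signal was nearer to LT than to 17kT, as it was for 269 of all 530 genes lower in LT (50.8%).

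The RefSeq promoter windows (GRCm38.p6, 50 bases of each lying after the annotated start) were searched for a pair of p53 consensus half-sites, each of 10 bases, with at most 1 mismatch in the pair, a spacer of 0 to 2 bases and the C and G of each core kept. The consensus is its own reverse complement, so 1 search covers both strands. Such a pair was in 54 of 32851 windows (0.164%). Of 402 genes lower in LT with a window, 3 had one (Cdkn1a, Ccng1 and Gtse1), as did 0 of 444 genes higher in LT and 11 of 9262 measured genes that were not called. The 3 windows are printed because all 3 genes are members of the arrest list that were lower in LT, with the half-site pairs in capitals.
Cdkn1a, chr17:29090729-29091028, plus strand, 1 of 2 windows of the gene: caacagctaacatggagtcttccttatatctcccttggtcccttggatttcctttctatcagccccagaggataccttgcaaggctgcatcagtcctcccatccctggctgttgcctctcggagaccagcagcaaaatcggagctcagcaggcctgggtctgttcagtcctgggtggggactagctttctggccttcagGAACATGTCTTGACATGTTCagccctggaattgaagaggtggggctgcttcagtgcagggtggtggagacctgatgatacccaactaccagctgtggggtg
Ccng1, chr11:40755237-40755536, minus strand: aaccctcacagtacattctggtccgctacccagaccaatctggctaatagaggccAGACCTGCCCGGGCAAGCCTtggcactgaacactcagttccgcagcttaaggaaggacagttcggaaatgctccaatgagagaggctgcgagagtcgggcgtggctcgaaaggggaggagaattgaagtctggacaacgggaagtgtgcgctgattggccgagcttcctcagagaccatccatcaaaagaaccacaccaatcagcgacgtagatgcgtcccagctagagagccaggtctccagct
Gtse1, chr15:85859696-85859995, plus strand, 1 of 2 windows of the gene, with 2 overlapping pairs: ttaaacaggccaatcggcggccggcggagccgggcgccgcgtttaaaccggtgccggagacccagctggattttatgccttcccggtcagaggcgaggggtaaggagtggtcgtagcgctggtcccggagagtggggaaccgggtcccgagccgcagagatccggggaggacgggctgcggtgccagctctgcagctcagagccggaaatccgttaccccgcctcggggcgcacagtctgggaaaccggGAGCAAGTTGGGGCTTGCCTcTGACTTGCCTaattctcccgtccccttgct
A match is a description of the letters and not a measured binding site, and the absence of a match in these short windows says nothing about p53 at the other genes.

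Genes of cell cycle arrest and p53 feedback made up the largest part of the p53 difference. Of 24 measured members, 12 were lower in LT, 0 higher, and the median log2 ratio was -0.92, from -1.13 to -0.73 under the 6 scalings. Cdkn1a, which encodes the cyclin-dependent kinase inhibitor p21, had a signal of 215 in WT, 881 in LT and 2938 in 17kT liver, 3.33-fold lower in LT than in 17kT. Another Cdkn1a probe set gave a log2 ratio of -2.14 or lower, with WT (59.1) and LT (83.7) under the floor and 17kT at 399. By the first probe set both antigens came with more Cdkn1a signal than WT, and by both probe sets 17kT had the most. Mdm2, the ubiquitin ligase that degrades p53, had 219 in WT, 340.4 in LT and 892 in 17kT, 2.62-fold lower in LT, and another probe set gave a log2 ratio of -0.66. Mdm4, its partner in restraining p53, was 2.03-fold lower on 430B. Ccng1 encodes cyclin G1, a feedback regulator of p53. Its signals were 297 in WT, 154 in LT and 644 in 17kT, 4.17-fold lower in LT, with log2 ratios of -2.20 and -2.55 from 2 other probe sets. For Ccng1, LT lay below WT and 17kT above it.

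The largest ratios in the arrest list were in genes that were dim in LT. Psrc1, a microtubule-associated protein gene, had 70.1 in WT, 118 in LT and 1049.7 in 17kT, 8.88-fold lower in LT, and -2.27 on the log2 scale with another probe set. Ptp4a3, a tyrosine phosphatase gene, had 92, 165 and 919 in the same order, 5.57-fold lower. Eda2r, the ectodysplasin A2 receptor, had 37.1, 78.1 and 765 on 430B, at least 5.44-fold lower, with both WT and LT under the floor. In these genes 17kT stood apart from both other livers. Btg2, an antiproliferative early response gene, was 349 in WT, 301 in LT and 1507 in 17kT, 5.01-fold lower in LT, but another probe set gave a log2 ratio of 0.01. Trp53inp1, a cofactor of p53, had signals of 511, 546 and 1892 (3.47-fold lower), and Gtse1, a G2 and S phase protein that restrains p53, 7.9, 162 and 509 (3.13-fold). Plk2 (2.38-fold) and Zmat3 (at least 2.80-fold) were also lower. Members that differed by less than 2-fold included Ckap2 (log2 ratio -0.81), Sesn1 (-0.67), the phosphatase gene Ppm1d (-0.64) and Ccng2 (-0.06), and the ubiquitin ligase gene Cop1 had 0.74. Gadd45a, Sesn2, Sfn and Klf4 were at the floor on both arrays. Trp53 and Bax were not analysed here.

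Among p53 targets of cell death, 4 of 21 measured members were lower in LT and 0 higher, with a median of -0.41. These were the nuclease gene Aen, at 354 in WT, 313 in LT and 1099 in 17kT (3.51-fold lower, with -0.01 to -1.22 from 3 other probe sets), Phlda3, whose product restrains AKT, at 208, 225 and 590.2 (2.63-fold), Ei24 (2.12-fold) and Pidd1 (at least 2.04-fold). The core death genes of the list were dim or alike. Bbc3, which encodes PUMA, had signals of 94.6, 47.1 and 102, the death receptor gene Fas 70.8, 48.9 and 91.2, and the log2 ratios of Pmaip1 (NOXA) and Apaf1 were -0.29 and -0.51.

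Repair and metabolism targets of p53 were split. Of 23 measured members 8 were lower in LT (34.8%, against 4.23% of all measured genes) and 0 higher. The median was -0.19 and ranged from -0.54 to -0.02 under the 6 scalings. Dcxr, a dicarbonyl and xylulose reductase gene, had 2360.2 in WT, 344 in LT and 2098 in 17kT (6.09-fold lower in LT), and Ephx1, the microsomal epoxide hydrolase, 3071, 1283 and 4867 (3.79-fold). In both, LT was the liver that stood apart from WT. Cpt1c, a carnitine palmitoyltransferase family gene, had 52.4, 336 and 1508 on 430B (4.48-fold lower), and there WT was under the floor. Also lower were the phosphatidate phosphatase gene Lpin1 (at least 3.19-fold), the mTOR inhibitor gene Ddit4 (at least 3.12-fold), the thiamine transporter gene Slc19a2 (2.72-fold), the translesion polymerase gene Polk (2.15-fold) and Zfp365 (at least 2.30-fold, on 430B). The repair genes Ddb2 and Xpc had log2 ratios of -0.50 and -0.01, and Rrm2b, a ribonucleotide reductase subunit, 0.15.

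**Figure D3:**
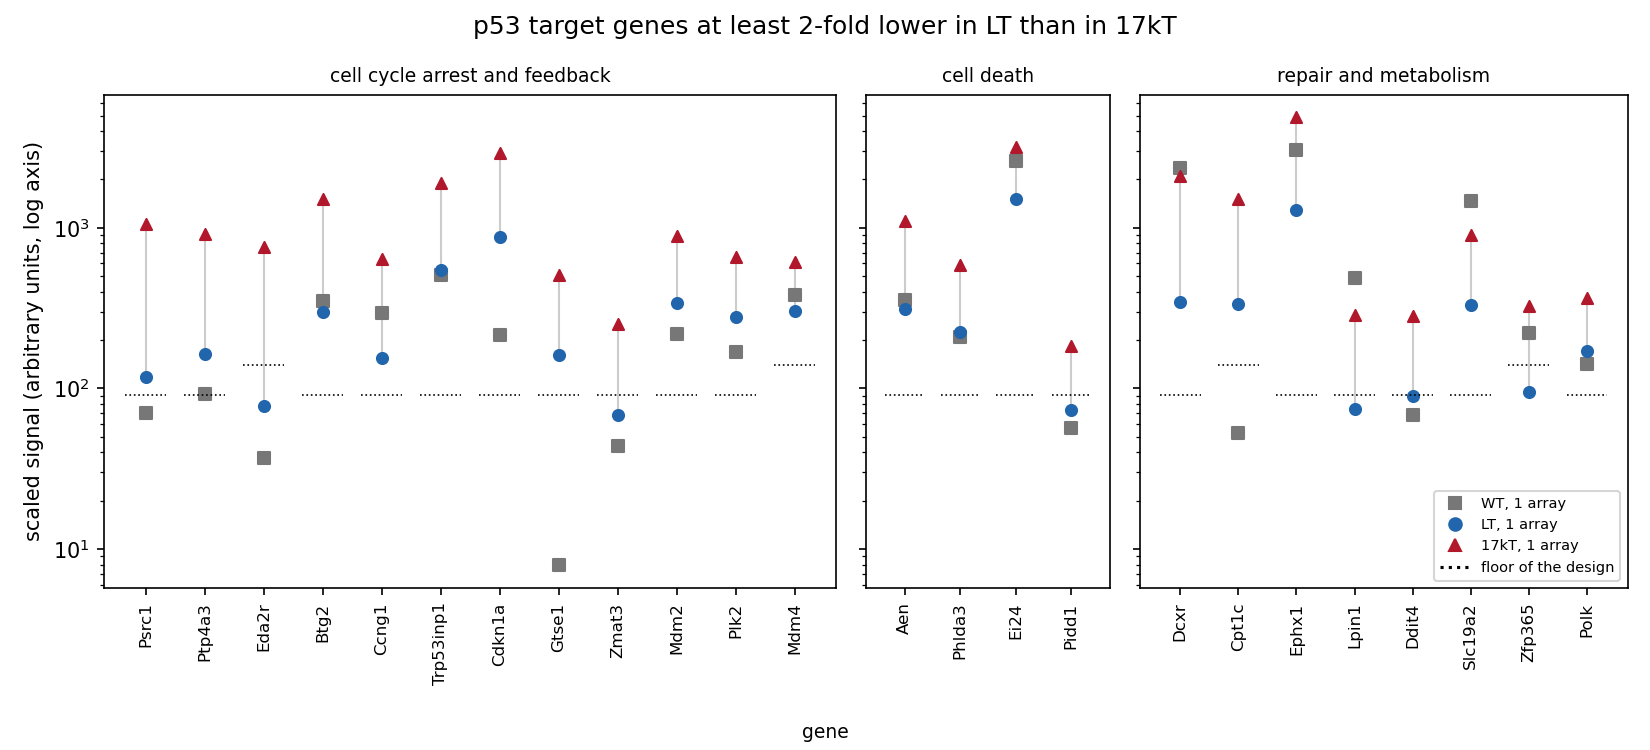
Scaled signal (vertical log axis, arbitrary units) of the 24 p53 target genes lower in LT (horizontal axis), with WT as squares, LT as circles, 17kT as triangles, 1 array each, and the floor of the design as a dotted line. 17kT lies above LT in every gene by the choice of genes, and WT lies nearer to LT in 18 of the 24.

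A list of oncofetal and imprinted growth genes had the largest share of members higher in LT. Like the other lists, it was chosen with earlier results of these data known. Of its 26 measured genes, 9 were higher in LT (34.6%, against 4.47% of all measured genes) and 1 was lower, and the median log2 ratio was 0.39, from 0.22 to 0.48 under the 6 scalings. All 9 were measured on 430A, and the median was 0.029 over the 10 members with a 430B probe set when that design was taken alone. Afp, alpha-fetoprotein, the serum protein of the fetal liver, was 65.7 in WT, 7712 in LT and 223 in 17kT, a 34.6-fold difference and the largest of all measured genes. Other Afp probe sets gave log2 ratios of 5.07, 4.94 and 0.56. Igf2, the fetal insulin-like growth factor, was 47.2, 776 and 75.4 (at least 8.59-fold higher in LT), under the floor in both other livers. Gpc3, a cell surface proteoglycan of fetal liver and liver tumours, was 91.5, 899 and 187 (4.81-fold). The imprinted zinc finger gene Peg3 was 178, 808 and 118 (6.87-fold), but another probe set gave 0.47.

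The Bex genes, small X-linked genes of one family whose members resemble each other, went the same way. Bex1 was 16.4 in WT, 1629 in LT and 63.7 in 17kT (at least 18.0-fold higher in LT), Bex4 90.7, 309.6 and 94.1 (3.29-fold), and Bex2 68.7, 205 and 62.1 (at least 2.27-fold). Bex3 was high in both transgenic livers, at 23, 2581 and 1477, with a log2 ratio of 0.81. Slpi, a secreted protease inhibitor, was 183, 3265 and 933 (3.50-fold higher in LT). Other members of the list were at the floor or alike. Dlk1, Peg10, Lin28b, Igf2bp1 and Hmga2 were at the floor on both arrays, the imprinted genes Meg3, Plagl1 and Mest had log2 ratios of 0.02, -0.05 and 0.28, and Mirg, a noncoding RNA of the Dlk1 and Meg3 cluster, was 2.48-fold lower on 430B. Zbtb20 and Zhx2, repressors of Afp, had 0.62 and 0.46 on 430B.

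Afp lies in a row of albumin family genes in the RefSeq table, in the order Alb, Afp, Afm and Albfm1. The neighbours differed less between LT and 17kT than Afp did. Alb, albumin itself, was 28283 in WT, 23851 in LT and 18262 in 17kT, a log2 ratio of 0.39. Afm, the vitamin E binding protein afamin, was 4782, 2056 and 350.1, 5.87-fold higher in LT, with 2.29 from another probe set. Unlike Afp, Afm was brightest in WT and lowest in 17kT. Albfm1 had a log2 ratio of 0.59 on 430B.

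Markers of bile ducts and liver progenitors had 5 of 18 measured members higher in LT (27.8%, against 4.47% of all measured genes), 0 lower, and a median of 0.50. Sox4, a transcription factor of progenitor cells, was 43.8 in WT, 661 in LT and 41.7 in 17kT (at least 7.32-fold higher in LT). The surface proteins Cd24a (89.6, 545 and 57.6, at least 6.03-fold, with 1.66 and 0.29 from other probe sets) and Prom1 (88.4, 550.1 and 158, 3.48-fold) were higher too. Tff3, a secreted trefoil peptide, was 2.52-fold higher, though brightest in WT, and the Notch ligand gene Jag1 at least 2.51-fold on 430B. The defining bile duct genes Krt7, Krt19, Sox9 and Epcam were at the floor in both livers. The summed signal of the 27 list genes on 430A was 4616 in WT, 6380.4 in LT and 4329 in 17kT, and the part of bile duct cells in these differences was not tested.

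**Figure D4:**
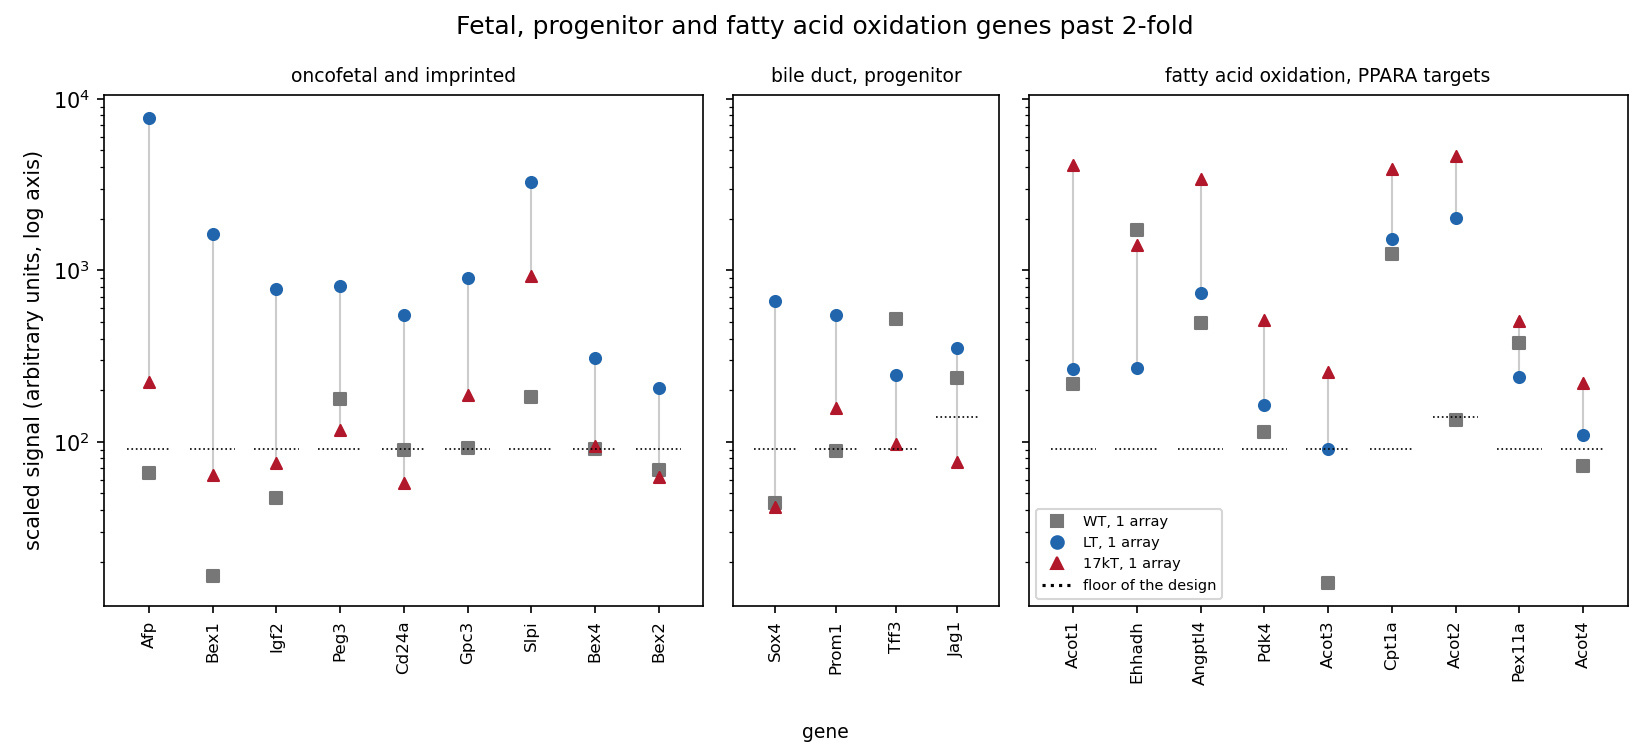
Scaled signal (vertical log axis, arbitrary units) of the genes (horizontal axis) higher in LT on the oncofetal and the bile duct and progenitor lists, and of those lower in LT on the fatty acid oxidation list, with WT as squares, LT as circles, 17kT as triangles, 1 array each, and the floor dotted. Afp runs from 223 in 17kT to 7712 in LT, and Acot1 from 267 in LT to 4111 in 17kT.

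The next group examined was fatty acid oxidation genes and targets of PPARA, the nuclear receptor that switches on fat burning in fasting. Of 46 measured members 9 were lower in LT (19.6%, against 4.23% of all measured genes), 1 was higher and 36 differed by less than 2-fold, and the median was -0.54, from -0.87 to -0.38 under the 6 scalings. Cpt1a, the rate-limiting carnitine palmitoyltransferase of mitochondrial import, had 1247 in WT, 1527 in LT and 3881 in 17kT (2.54-fold lower in LT), with -1.31 and -1.10 from 2 other probe sets. Pdk4, the kinase that turns off glucose oxidation, had 114, 164 and 515 (3.14-fold), and Angptl4, a secreted inhibitor of lipoprotein lipase, 495, 735 and 3419 (4.65-fold). In these 3 genes LT was nearer to WT, and 17kT was above both. Ehhadh, the bifunctional enzyme of peroxisomal oxidation, ran the other way, with 1716 in WT, 268 in LT and 1409 in 17kT (5.26-fold lower in LT).

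The acyl-CoA thioesterases, which free fatty acids from coenzyme A, had the lowest ratio of the comparison. Acot1 was 217 in WT, 267 in LT and 4111 in 17kT, 15.4-fold lower in LT. Acot2 (2.31-fold, on 430B), Acot3 (2.81-fold) and Acot4 (2.01-fold) were lower as well. These genes are close paralogs in one cluster, and probes may bind more than one of them, so each value is uncertain. Pex11a, a peroxisome division gene, was 2.12-fold lower. Enzymes of the mitochondrial cycle differed less, with log2 ratios of -0.58 for Acadvl, -0.58 for Acadl, 0.07 for Acadm and -0.29 for Hadha. The receptor gene Ppara itself was alike in both livers, with a log2 ratio of -0.05 on 430B. The coactivator gene Ppargc1a had 0.47, which is under 2-fold and toward higher in LT. Vnn1, a pantetheinase gene on the same list, was 3.26-fold higher in LT, with 2.47 on the log2 scale from another probe set.

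Cell division genes were high in both livers and differed little between them. Of 73 measured genes of G2/M and mitosis, 1 was higher in LT (Bub1, 2.09-fold) and 2 were lower (Kif4, 2.53-fold, and Pbk, 2.17-fold), with a median of -0.25, while the medians against WT were 2.21 for LT and 2.31 for 17kT. The G2/M median stayed below 0 under the 6 scalings (-0.58 to -0.09) and was 0.17 over the 28 members with a 430B probe set on that design alone. Top2a, the DNA topoisomerase of dividing cells, had 169 in WT, 2508 in LT and 3343 in 17kT, and Mki67, the Ki-67 antigen, 199, 1937 and 2454. Cdk1, the mitotic kinase, had 303, 2288 and 2524. Of 71 genes for DNA replication and G1/S, 1 was higher (Cdk6, 2.01-fold, on 430B) and 2 were lower (Uhrf1, 2.34-fold, and Rrm2, 2.06-fold), with a median of -0.19 and medians against WT of 1.64 and 1.72. The replication clamp gene Pcna had 969, 4027 and 4598. The shares called were 1.37% higher and 2.74% lower for G2/M, and 1.41% and 2.82% for replication, against 4.47% and 4.23% of all measured genes. Most members were on 430A (58 of 73 and 59 of 71). On that design 2.59% of all measured genes were higher and 2.59% lower, so the lower shares of these lists were near it.

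Of the E2F and pocket protein network, 0 of 30 measured members were higher in LT and 1 was lower, the pocket protein gene Rbl2 (at least 2.08-fold, with -0.11 from another probe set). Rb1 itself had 90.3 in WT, 121 in LT and 221 in 17kT (log2 ratio -0.87), Rbl1 -0.48, and E2f1 82.7, 195 and 277 (-0.51, with 0.10 and 0.13 from other probe sets). Cdkn2a, which encodes p16 and p19ARF, was at the floor in both. Of 51 measured genes for DNA damage response and repair, 1 was lower, the histone variant gene H2ax (226, 737 and 1516, 2.06-fold), and 0 were higher.

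Among the genes of mature hepatocyte functions, a minority differed by 2-fold, and more of these were higher than lower in LT for bile acid, growth hormone dependent, periportal and plasma protein genes. The median log2 ratios against WT were -0.90 in LT and -1.18 in 17kT for bile acid genes, -1.59 and -2.55 for growth hormone dependent genes, -0.88 and -1.58 for periportal genes, and -0.84 and -1.25 for plasma protein genes. Bile acid synthesis and transport had 8 of 32 measured genes higher in LT (25.0%, against 4.47% of all measured genes) and 2 lower (median 0.42, and 0.05 to 0.61 across the 6 scalings). Slc10a1, the importer of bile acids from blood, had 6549 in WT, 1392 in LT and 324 in 17kT (4.30-fold higher in LT, and 2.04 on the log2 scale from another probe set). Abcb11, the canalicular bile salt pump, had 6218, 3056 and 1101 (2.78-fold). Both were ordered WT, LT, 17kT. The basolateral exporter subunit Slc51b broke that order, at 139, 729 and 135 on 430B (at least 5.19-fold higher in LT). Abcc2, the canalicular exporter of conjugates, was 242, 118 and 538, 4.56-fold lower in LT, and the oxysterol hydroxylase gene Cyp39a1 was 2.36-fold lower. Cyp7a1, the rate-limiting enzyme of bile acid synthesis, had a log2 ratio of 0.30.

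Growth hormone dependent and male-biased genes had 6 of 28 higher in LT and 2 lower (21.4% and 7.14%, against 4.47% and 4.23% of all measured genes). Their median of 0.59 was the highest of the lists with at least 5 measured genes, and ran from 0.31 to 0.70 under the 6 scalings. On 430A alone it was 0.46, below the 0.52 of the oncofetal list. Igf1, the growth factor that growth hormone induces in liver, had 21524 in WT, 9872 in LT and 2965 in 17kT on 430B (3.33-fold higher in LT), with 0.98, 1.22 and 1.85 from other probe sets. The complement genes C8a (at least 3.49-fold) and C8b (3.13-fold) and the conjugating enzyme gene Ugt2b1 (3.96-fold) were higher in LT and brightest in WT. Genes of the periportal zone had 7 of 25 higher and 0 lower (median 0.42), among them Cyp2f2 (17647, 3051 and 803, 3.80-fold), the adhesion gene Cdh1 (3.48-fold) and the immunoglobulin transporter gene Pigr (4818, 511 and 94.8, 5.39-fold). Hsd17b13, a lipid droplet enzyme gene, was 24.5-fold higher on 430B, but its 430A probe set gave a log2 ratio of -2.10, so its direction is not settled. On 430A alone, 5 of 23 periportal genes were higher in LT and 1, Hsd17b13, was lower. Pericentral genes had 3 of 21 higher and 1 lower (14.3% and 4.76%, the lower share near that of all measured genes), with a median of -0.14. Among them were Car3, a carbonic anhydrase, at 16335, 10259 and 621 (16.5-fold higher in LT, with 3.27 from another probe set), and Cyp2e1, at 13905, 460.1 and 962 (2.09-fold lower).

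The next counts stand beside 4.47% higher and 4.23% lower over all measured genes. Plasma protein and coagulation genes had 7 of 47 higher in LT (14.9%) and 0 lower (median 0.36, and 0.01 to 0.52 across the 6 scalings). The 7 included Afp, which is also on the oncofetal list. Others were Serpina6, the corticosteroid binding globulin (4011, 2059.8 and 514, 4.01-fold), Serpina7, the thyroxine binding globulin (587, 4102 and 1143 on 430B, 3.59-fold), and Klkb1, plasma prekallikrein (2.65-fold). Mug1, of a family of close paralogs, was 3.98-fold higher. The list of cytochrome P450 genes had 6 of 35 higher and 2 lower around a median of 0.03. The lower were Cyp2e1 and Cyb5r3 (2.55-fold, with -0.60 on the log2 scale from another probe set), a reductase gene and not a P450 gene. Cyp2j5 was 5259 in WT, 441 in LT and 5.97 in 17kT (at least 4.88-fold higher in LT), and the Cyp2c genes Cyp2c38 (3.21-fold) and Cyp2c39 (2.43-fold) were higher, though they have near-identical relatives. Conjugation and other oxidation enzymes had 9 of 51 higher and 2 lower, led by Akr1c19 on 430B (5.46-fold) and Akr1c6 (4.57-fold) on the one side and by the carboxylesterase gene Ces2e (752, 214 and 2668, 12.5-fold lower) on the other. Urea cycle and amino acid breakdown had 5 of 64 higher (7.81%, against 4.47% of all measured genes) and 0 lower with a median of 0.06, led by the proline dehydrogenase family gene Prodh2 (at least 5.36-fold) and Haao of tryptophan breakdown (3.31-fold). Hepatocyte transcription factors had 3 of 38 higher (Cebpa, 2.27-fold, and on 430B Prox1, 2.17-fold, and Arnt, 2.24-fold, the latter with -0.14 on 430A), 1 lower (Tef) and a median of -0.01, and Hnf4a had 2981, 2621 and 2458.

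Sugar and fat handling outside oxidation went both ways, and its counts are small beside a background of 4.47% higher and 4.23% lower over all measured genes. Of gluconeogenesis, glycogen and fasting genes 4 of 32 were higher, among them the glucagon receptor gene Gcgr (3.46-fold) and the glucose transporter gene Slc2a2 (2361, 1831 and 554, 3.30-fold), and 3 were lower, Depp1 on 430B (7.21-fold, with -0.11 from another probe set), Ddit4 and Igfbp1 (2.39-fold). Fatty acid and triglyceride synthesis had 4 of 39 higher, among them the fatty acid binding protein gene Fabp1 (2.65-fold), and 2 lower, Fabp2 (3.70-fold) and Lpin1. Cholesterol synthesis and uptake had 3 of 25 higher (Sqle, 2.56-fold, Sc5d, 2.60-fold, and Insig1, 2.12-fold, the latter pair on 430B) and 1 lower. Apolipoprotein genes had 2 of 26 higher, Apom (5.79-fold) and Apoa2 (3.80-fold), and 2 lower, Apoc4 (2.80-fold) and Apoa5 (2.06-fold). Apoe, whose regulatory elements give the ApoErtTA transgene its name, had 23482 in WT, 7454 in LT and 12445 in 17kT, a log2 ratio of -0.74.

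Stress responses were uneven, with counts that stand beside 4.47% higher and 4.23% lower over all measured genes. The NRF2 antioxidant response had 4 of 29 lower in LT, the quinone reductase gene Nqo1 (2.82-fold), the sulfiredoxin gene Srxn1 (2.21-fold, with -0.62 to -1.02 from 3 other probe sets), the heme oxygenase gene Hmox1 (2.01-fold) and Abcc2, and 1 higher, Osgin1 (2.93-fold), around a median of 0.02. The metal-binding metallothionein genes were high in both livers and lower in LT, Mt1 at 686, 3927 and 8467 (2.16-fold) and Mt2 at 383, 1519 and 4089 (2.69-fold), and the 2 are close paralogs. Acute phase genes had 5 of 32 higher, among them the haptoglobin gene Hp (2.95-fold), and 5 lower, among them Serpina3n (2111, 207 and 876, 4.24-fold) and Steap4 (3.13-fold). Genes of the unfolded protein response had 5 of 42 higher and 0 lower with a median of 0.36 (0.10 to 0.56 under the 6 scalings), among them the folding factor genes Creld2 (2.52-fold) and Pdia6 (2.26-fold). Ern1, its sensor, was 3.06-fold higher on 430B, but -0.33 on the log2 scale with the 430A probe set. On 430A alone 2 of 41 genes of the unfolded protein response were higher, with a median of 0.18. On 430B alone 3 of 11 were, with a median of 0.66. Circadian clock genes had 3 of 17 lower and 0 higher, the output factor Tef (2.90-fold), the repressor gene Nr1d2 (2.58-fold) and Per1 (5.6, 264 and 555, 2.11-fold), and the sources used here do not give the time of day of collection.

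Some groups held few or no calls, or a share near that of all measured genes (4.47% higher and 4.23% lower). Among interferon response genes 0 of 57 were called, with a median of 0.11, among apoptosis regulators 0 of 39 (-0.15), among proteasome genes 0 of 37 (0.03), and among oxidative phosphorylation genes 0 of 72 (0.34, from -0.002 to 0.51 under the 6 scalings, so that its sign turned). Cytosolic ribosomal protein genes had 0 of 41 higher and 1 lower (Rps27, 2.37-fold) around a median of 0.38. Ribosome biogenesis had 2 of 50 higher and 0 lower. Subunits and modifiers of PP2A, the target of the st antigen that both livers made, had 2 of 24 higher (8.33%, against 4.47%) and 0 lower. The 2 were Ppp2r5e (2.25-fold) and Ppp2r3a (at least 2.21-fold). Both were among the 3 members measured on 430B, where 6.79% of all genes were higher. Immediate early and growth factor response genes had 2 of 35 higher, among them the hepatocyte growth factor receptor gene Met (2.45-fold, on 430B), and 2 lower, Btg2 and Klf10 (3.29-fold).

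**Figure D5:**
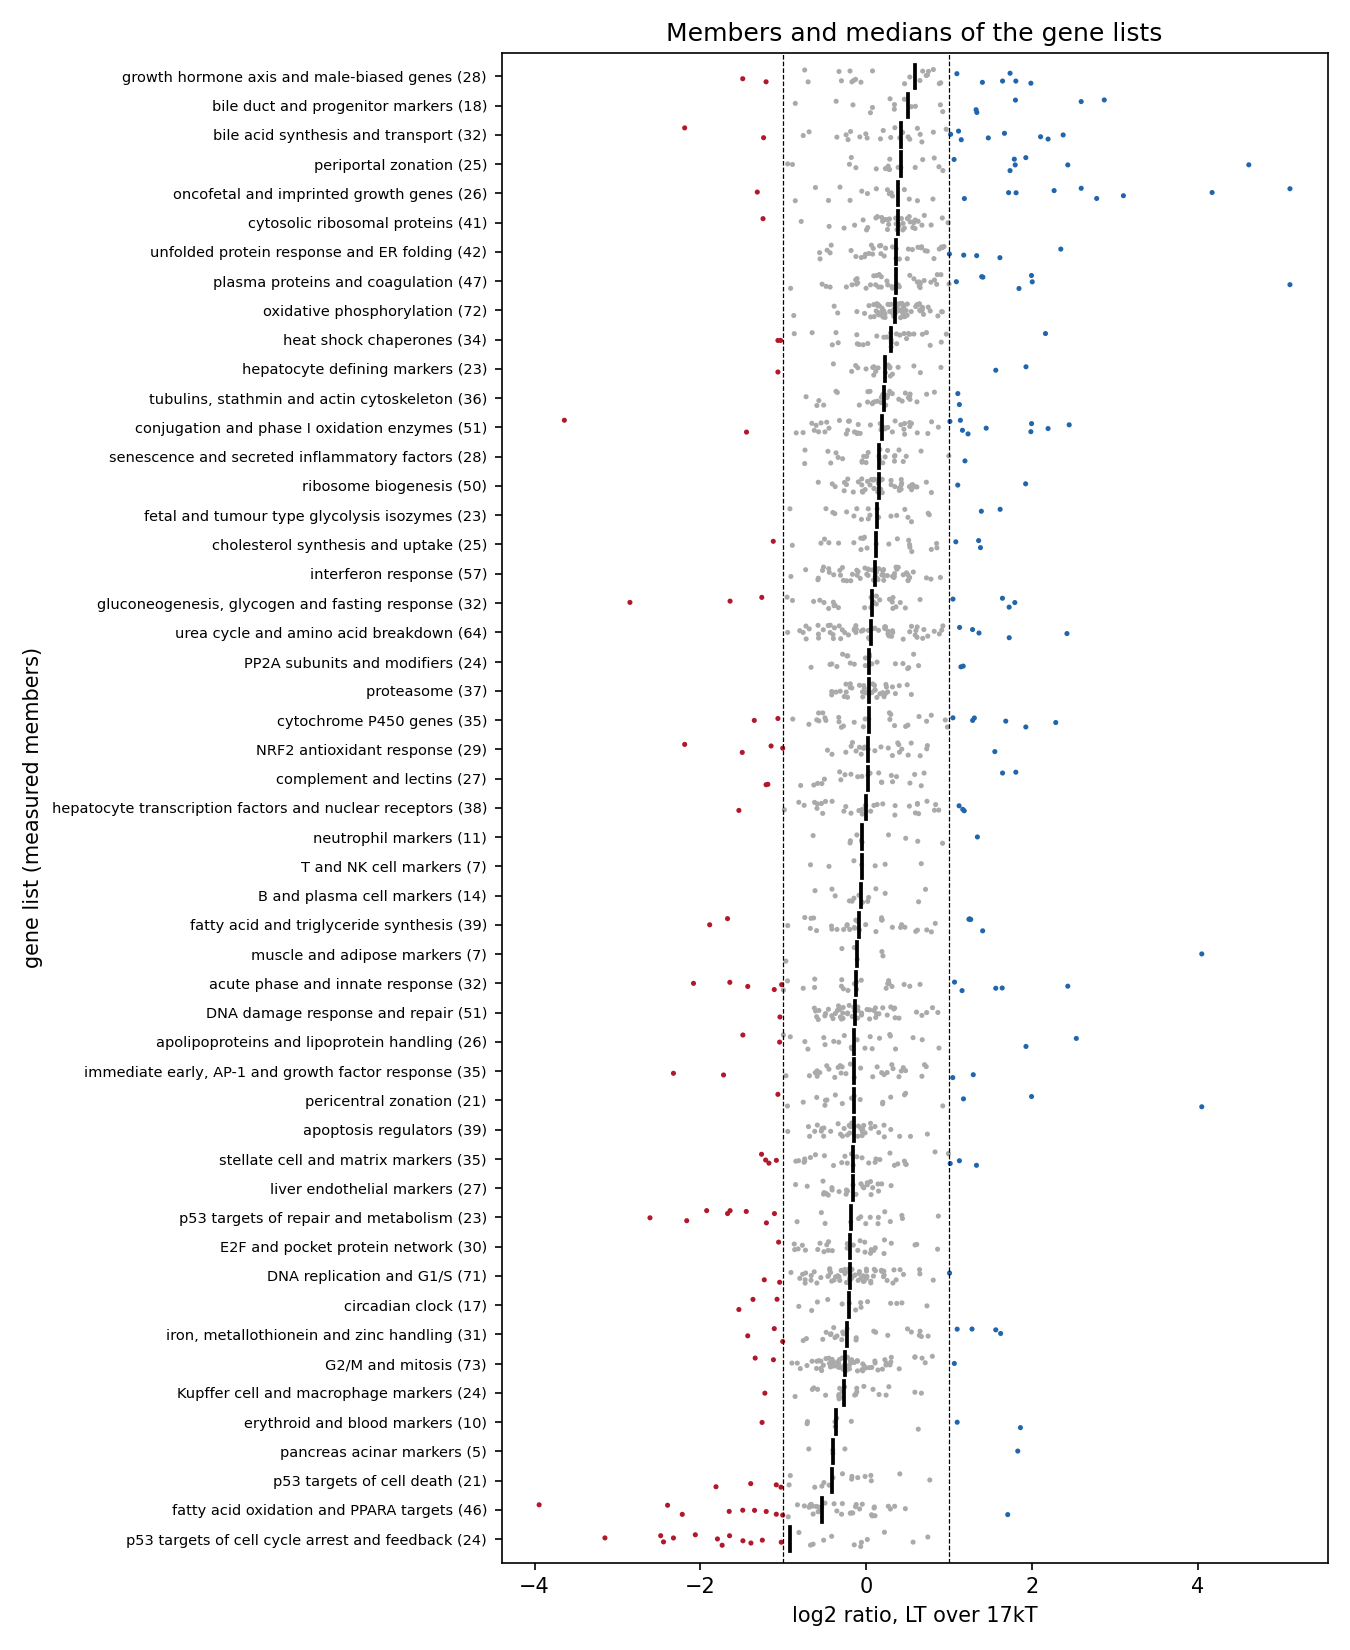
Log2 ratio of LT over 17kT (horizontal axis) of every measured member of the gene lists with at least 5 measured genes (vertical axis, number measured in brackets), with the list median as a black bar, dashed lines at 2-fold, blue for higher and red for lower in LT. The arrest list of p53 targets has the lowest median (-0.92), fatty acid oxidation the next (-0.54), and the growth hormone list the highest (0.59).

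The counts of cell type markers stand beside 4.47% higher and 4.23% lower over all measured genes. Defining hepatocyte markers were bright in both livers, with a summed signal over 21 genes on 430A of 334019 in WT, 205900 in LT and 166274 in 17kT. Of 23 measured members 2 were higher in LT (Apoa2 and Hp) and 1 lower (Cyp2e1), with a median of 0.23. Markers of Kupffer cells and macrophages had 0 of 24 higher and 1 lower (Cd163, at least 2.33-fold), with a median of -0.27 and summed 430A signals of 22103 in WT, 21579 in LT and 24712 in 17kT over 28 genes. Endothelial markers had 0 of 27 called and sums of 9519, 6829 and 8426. B cell and T and NK cell markers had 0 of 14 and 0 of 7 called, with Cd3d, Cd3e and Cd4 at the floor in both livers. Neutrophil markers had 1 of 11 higher (S100a8, at least 2.53-fold). Stellate cell and matrix markers went both ways, with 3 of 35 higher and 4 lower. The higher were Fn1 (2.51-fold, but 0.10 on the log2 scale from another probe set), Vim (2.18-fold) and Fbln1 (2.02-fold on 430B but -0.28 on the log2 scale on 430A). The lower were Dcn (2.40-fold), Postn (2.32-fold), Ecm1 (2.25-fold) and Colec10 (2.12-fold on 430B). Of 10 measured erythroid markers 7 had a log2 ratio below 0, with a median of -0.36. Called higher were 2, Car2 (285, 2716 and 748, 3.63-fold) and Tfrc (2.14-fold, but -0.003 and 0.36 on the log2 scale from other probe sets). Sptb was the 1 called lower (2.39-fold on 430B, with -0.41 on the log2 scale on 430A), and Klf1, Gata1 and Slc4a1 were at the floor in both. Of 5 measured pancreas acinar markers 1 was higher in LT, Spink1 (3.55-fold). The other 4 had log2 ratios between -1 and 0, and the median was -0.40. Cpa1, Cpb1 and Cel were at the floor. The part of other cell types in the differences between LT and 17kT was not tested.

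Among the 15 highest ratios with both arrays above the floor and no opposing probe set, the genes not described above were Lgals2, a galectin gene (92 in WT, 958 in LT and 122 in 17kT, 7.88-fold, with 1.32 from another probe set), and 6 genes on 430B. Of these, Ang, a ribonuclease gene, was 19544, 11484 and 1918 (5.99-fold), with log2 ratios of 1.41 from another 430B probe set but 0.39 on 430A. Rgs2, a regulator of G protein signals, was 390.3, 2728 and 501 (5.44-fold, with 1.19 to 1.26 from 3 other probe sets). Pik3ap1 was 4.70-fold higher. Epn2 (9.84-fold), Chmp4c (5.18-fold) and Fbxo42 (4.93-fold) rest on 1 probe set each, since others gave log2 ratios of 0.15 and 0.73, of -0.06, and of -0.28 and 0.27. Among genes at the floor in 17kT, BC080696 and the histone gene H3c11, both on 430B, were at least 8.09-fold and at least 7.49-fold higher. Histone genes resemble one another, and H3c11 is uncertain.

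Among the 15 lowest ratios, the genes not described above were Muc13, a mucin gene (54.6 in WT, 92.4 in LT and 414 in 17kT, 4.48-fold lower in LT), and Sfrp5, a secreted antagonist of Wnt signals (401, 144 and 685 on 430B, 4.76-fold). The brightest genes in 17kT that were at the floor in LT were Sulf2, a heparan sulfate sulfatase gene (152, 72.1 and 649.7, at least 7.19-fold lower, with -1.27 and -2.41 from other probe sets), Gm6958 (at least 6.83-fold), Eda2r, and on 430B Mroh2a (at least 6.51-fold), the dynein gene Dnah6 (at least 4.84-fold) and Clic6 (a log2 ratio of -2.32 or lower). Sulf2 thus showed the same direction in 3 probe sets, while Clic6 gave -0.38 with another.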

How the data were processed

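Liver RNA of 3 genotypes was measured on the array designs 430A and 430B, with 6 arrays in all. The deposited values are linear intensities that the authors made for each probe set with MAS5, per the submitters' processing notes. The 2% trimmed mean differed by less than 1 unit between the deposited arrays, so they had been scaled by the authors. The sources used here do not give the version of MAS5. Arrays hold no counts, and their number limits the precision.

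Gene symbols came from the platform annotation (20393 of 22690 on 430A and 14674 of 22575 on 430B with 1 symbol). The rest were not used. Signals were scaled within a design to a common 2% trimmed mean, floored at the design's median, and put on the log2 scale. Each gene was represented by its brightest probe set relative to the floor, with _x_at probe sets, whose probes may match several genes, kept as a last resort. A gene at the floor on 1 array gives a bound. Calls were made at 2-fold.

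The 51 lists (40 for pathways and 11 for cell types, 1909 of 2103 entries on the arrays) and the members named were chosen with earlier results of these data known. Named genes were the 15 highest and 15 lowest ratios above the floor on both arrays with no probe set opposing by 2-fold, the 6 brightest each way at the floor on the other array, up to 5 called members each way per list, and Cdkn1a, Mdm2, Ccng1, Trp53, Rb1, E2f1, Pcna, Mki67, Top2a, Alb, Afp, Apoe, Igf2, Gpc3, Cpt1a, Pdk4 and Cdkn2a. Of these, Trp53 was not analysed here and Cdkn2a was at the floor on both arrays. Further list members were named after their values were seen. Promoter windows and gene order were from RefSeq (GRCm38.p6). Work was done with Python 3.11.15, numpy 2.4.6, pandas 2.3.3 and matplotlib 3.10.9, and the code was tested on simulated data. The 13 alternatives were 5 other scalings, 2 other floors, a pseudocount equal to the floor, calls at 3-fold, 2 ways of treating probe sets and each design alone.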

Additional observations from a re-analysis of the deposited data

How the results depend on the processing

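The counts depended on the settings. Genes higher and lower in LT numbered 868 and 316 with scaling to the median of all probe sets, 326 and 989 with scaling to the probe sets on both designs, 1100 and 1396 when the floor was the 25th percentile, 311 and 155 when it was the 75th, 362 and 311 with the floor as a pseudocount, 136 and 86 at 3-fold, and 191 and 193 on 430A alone. Scaling to the hybridisation controls gave 955 higher, and moved the medians to -0.70 for p53 targets of cell death, -0.54 for those of repair and metabolism, -0.58 for G2/M and -0.87 for fatty acid oxidation. Scaling to the probe sets on both designs gave -0.48 for p53 targets of repair and metabolism. The arrest list had -1.21 with the 75th percentile as the floor and -0.63 on 430B alone, where G2/M had 0.17 and the oncofetal list 0.029. Of 173 named genes past 2-fold, 87 did not pass the 3-fold rule. In all, 61 passed the rule of every alternative that gave a value, 3-fold included, in the same direction. The sign turned for 6: on 430A alone Arnt gave -0.14, Ern1 -0.33, Fbln1 -0.28, Fbxo42 -0.28, Hsd17b13 -2.10 and Klf6 -0.28, which Klf6 also gave without _x_at and _s_at probe sets. The cause was not tested. No paired analysis was possible because each genotype had 1 array per design. Genes near the floor are limited by signal over background.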

Other observations

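Several genes outside the lists, singled out after their values were seen, were higher in LT than in 17kT. The activin subunit genes Inhba and Inhbc had 404.7 and 736 in WT, 406 and 432 in LT and 48.9 and 127 in 17kT, with log2 ratios of at least 2.17 for Inhba and of 1.76 for Inhbc. Rarres2, the gene of the adipokine chemerin, had 2824 in WT, 1106 in LT and 245 in 17kT. Fzd5, a Wnt receptor gene, had 534, 1626 and 349 on 430B in the same order, and Cxadr, a tight junction protein and virus receptor gene, 1050.1, 6192 and 1632 on 430B. Tm4sf4, a tetraspanin relative, had 395, 2537 and 853 on 430A. Inhba, Inhbc and Rarres2 were thus lowest in 17kT, while Cxadr and Tm4sf4 were lowest in WT.

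Other such genes were lower in LT. Txnip, the thioredoxin inhibitor that glucose induces, had 229 in WT, 323 in LT and 1251 in 17kT, a log2 ratio of -1.96. G0s2, an inhibitor of triglyceride lipase, had 419, 516 and 1462. The heparan sulfate proteoglycan gene Sdc4 had 4388 in WT, 986 in LT and 3540 in 17kT, so that LT stood apart from both other livers. Gulo, which completes vitamin C synthesis, had 3862, 126 and 290.2.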
